A study of Rattus norvegicus with 22 samples.

Results

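The genes described here mark motile cilia, as carried by the ependymal cells that line the brain ventricles, and the choroid plexus, the epithelium that floats in the ventricles and secretes cerebrospinal fluid. They were chosen by name, 19 for cilia and 12 for choroid plexus, and 24 of them are among the 17310 genes listed in the count files: 12 cilia genes (Foxj1, Rsph1, Ccdc153, Tmem212, Dnai1, Dnai2, Ak7, Tekt1, Tekt4, Stoml3, Mlf1 and Enkur) and 12 choroid plexus genes (Ttr, Kl, Folr1, Kcnj13, Aqp1, Slc4a5, Otx2, Clic6, F5, Sostdc1, Cldn2 and Wfdc2). The symbols Rsph4a, Dnah5, Dnah9, Dnah11, Spag17, Hydin and Pifo are not listed there and were not analysed here.

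RNA was measured in the nucleus accumbens (NAc), a striatal region that lies close to the lateral ventricle, in adult male Wistar rats. In experiment 1, 5 rats had free access to 6% EtOH and to water for 8 weeks and 5 rats drank water alone. In experiment 2, gavage lasted 3 weeks, and 6 rats received EtOH by this route (2.5 g/kg as a 30% solution, 2 times daily) while 6 received water. All 12 of these rats also had 6% EtOH and water to drink, for 4 weeks ahead of the gavage and 2 weeks following it. The controls of experiment 2 therefore also drank EtOH, and no group of that experiment drank water alone. NAc core and shell were dissected from both sides of the brain right after the EtOH bottles were removed, and each library is 1 rat.

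Ependymal cells carry bundles of motile cilia whose axoneme is driven by dynein arms and regulated by radial spokes, and the transcription factor Foxj1 switches on the genes that build it. Choroid plexus epithelium makes transthyretin (Ttr) in large amounts and moves water, ions and folate into the cerebrospinal fluid. Neither cell type is part of the NAc itself, so such transcripts are used as a readout of ventricular wall in a dissected sample.

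Gene-assigned reads per rat numbered 2962291 to 5247386 in experiment 1 and 6713617 to 8765472 in experiment 2. Levels are given in CPM (read counts scaled to a fixed library size with TMM factors within each experiment). The experiments used libraries without and with strand information, so levels are not compared between them. Some libraries stood apart in other cell markers: in experiment 2 Slc17a7, a marker of cortical glutamatergic neurons, was at 3.08 CPM in water gavage rat 1, 0.139 in water gavage rat 5 and 1.959 in EtOH gavage rat 1, against 26.0 to 429 CPM in the other 9 rats. EtOH gavage rat 5 had a summed level of 266 CPM over 5 fibroblast genes, against 24.7 to 64.7 CPM in the other 11 rats. The cilia and choroid plexus members were therefore also fitted with every rat left out in turn, which was not done for other gene lists.

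Detection of the cilia genes was checked first. With a minimum of 10 reads over the rats of an experiment, 11 of the 12 cilia genes were tested in experiment 1 and 12 in experiment 2. Stoml3, a stomatin-like membrane protein gene, had 8 reads in all of experiment 1 and 13 in experiment 2. The other 11 had 94 to 825 reads over the 10 rats of experiment 1 and 61 to 1438 over the 12 rats of experiment 2. Cilia transcripts were thus detected in both experiments at a low level. Foxj1 had 138 reads in experiment 2 and was at 0 in 2 of 12 rats.

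The choroid plexus label went against the data. Otx2, a transcription factor of the choroid plexus epithelium, had 0 reads in all 22 libraries. Ttr, the most abundant transcript of that epithelium, had 0 to 32 reads per rat in experiment 1 and 0 to 8 in experiment 2, and was at 0 in 2 of 10 and 7 of 12 rats. The other 10 genes of the list had 18 to 249 reads in total in experiment 1 and 34 to 476 in experiment 2. With both defining markers at or near 0, the list is described gene by gene and its sum is not read as an amount of choroid plexus. The files count bulk RNA, so fewer cells of a type and less RNA per cell cannot be told apart.

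Upstream sequence is shown for the cilia genes because their levels moved together from rat to rat, as described further on. RefSeq promoter windows (300 bases, from 250 before to 50 after the annotated start, build GRCr8) were found for 8 of the 12 cilia genes, and for 7 of the 12 choroid plexus genes. No entry was found under the symbols Foxj1, Rsph1, Ccdc153, Enkur, Folr1, Otx2, Clic6, Sostdc1 and Cldn2. The windows of Dnai2, Tekt1, Tekt4 and Mlf1 held 6 letters found in the X-box, the motif of RFX transcription factors, printed in capitals in these stretches of 62 to 80 bases, 5′ to 3′ on the strand of the gene.
Dnai2: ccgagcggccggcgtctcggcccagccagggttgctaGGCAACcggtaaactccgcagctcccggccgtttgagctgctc
Tekt1: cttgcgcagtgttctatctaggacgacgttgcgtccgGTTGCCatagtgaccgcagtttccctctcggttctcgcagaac
Tekt4: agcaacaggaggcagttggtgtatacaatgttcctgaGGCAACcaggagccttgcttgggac
Mlf1: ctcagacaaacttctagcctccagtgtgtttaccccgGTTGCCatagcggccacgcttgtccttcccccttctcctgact
They lie at chr10:100258930-100259009 on the plus strand (Dnai2), chr10:57479118-57479197 on the minus strand (Tekt1), chr10:14992242-14992303 on the plus strand (Tekt4) and chr2:153958403-153958482 on the plus strand (Mlf1). The capitals begin 55, 39, 5 and 151 bases before the annotated start in that order.

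The motif GTTGCC, searched on both strands, was in 4 of the 8 cilia windows (50%), 1 of the 7 choroid plexus windows (Aqp1, 14.3%), 20 of 43 windows of other motile cilia genes (46.5%) and 12.2% of all 33469 windows. It was 1 of 11 motifs searched and was picked after its matches were seen. Longer X-box forms (GTTGCCATG and 7 forms of 10 or more letters, which overlap GTTGCC or each other) were in 0.0568% to 1.28% of all windows and in 0 of the members' windows. Apart from open positions in some forms, letters and spacing were fixed, so near matches were not counted. The forkhead motifs TGTTTAC and TGTTTGT were in 3.78% and 6.42% of all windows, and among the members TGTTTAC was in that of Mlf1. A match describes letters in a window and not a bound site.

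Experiment 1 asked what 8 weeks of voluntary EtOH intake did to NAc transcripts. All 11 cilia genes tested had a higher mean level in EtOH than in water rats, with log2 fold changes from 0.40 to 1.22 and a median of 0.75 (1.68-fold). Positive log2 fold changes made up 50% of the 12668 genes tested, whose median was 4.58e-05. In edgeR's quasi-likelihood test 6 of the 11 had P under 0.05, all higher, against 3.4% of all genes tested in that direction and 5.97% in either. None of the 11 passed an FDR of 0.05 (0% of all genes, smallest FDR of a cilia gene 0.668), and in none did the groups separate fully (0.924% of all genes, 0.489% higher and 0.434% lower with EtOH). The exact permutation test of single genes gave P under 0.05 for 1 of them (5.69% of all genes), with 0.00794 as the smallest P that 5 against 5 rats allow.

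**Figure D1:**
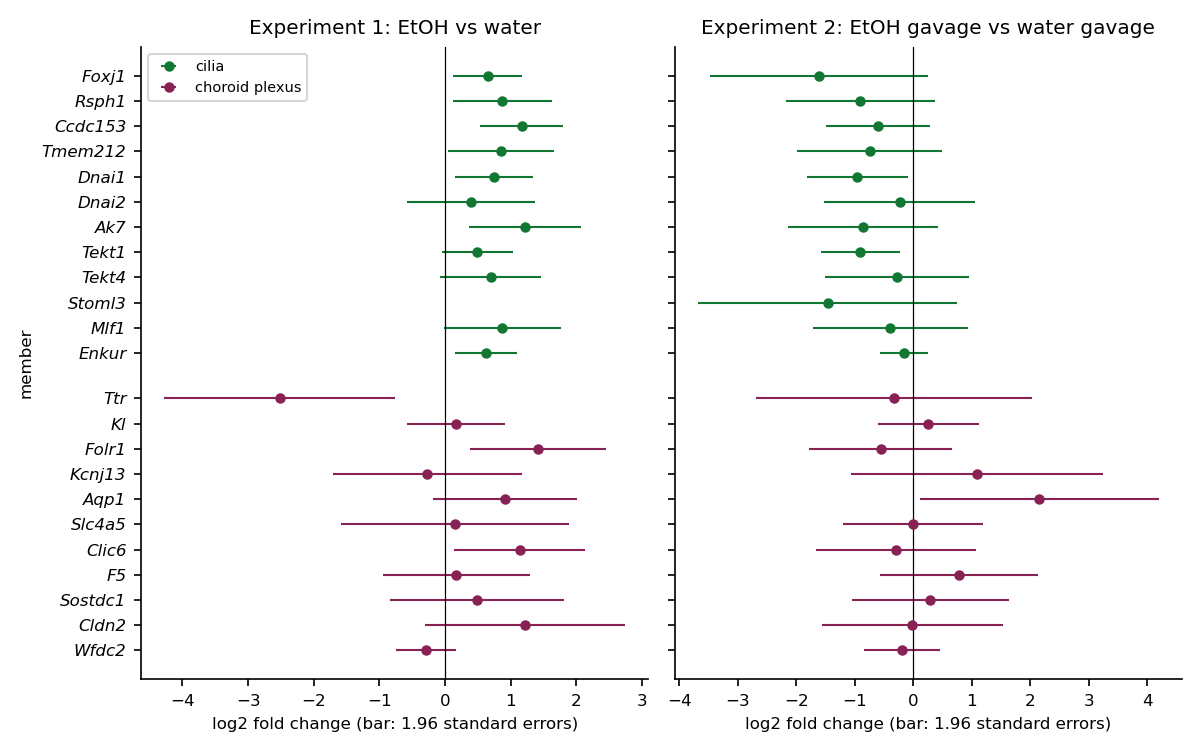
Log2 fold change of each tested member in experiment 1 (left, EtOH against water, 5 and 5 rats) and experiment 2 (right, EtOH gavage against water gavage, 6 and 6 rats), from edgeR, with bars for 95% intervals. The 11 cilia genes lie to the right of 0 in experiment 1 and the 12 to the left of 0 in experiment 2, while the choroid plexus genes lie on both sides.

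Foxj1, the regulator of the ciliary programme, was at 4.75, 17.3, 9.68, 8.58 and 18.7 CPM in water rats 1 to 5 and at 12.1, 18.7, 19.7, 22.9 and 21.7 CPM in EtOH rats 1 to 5. Water rats 1, 3 and 4 were below every EtOH rat, and water rats 2 and 5 were among them. Its log2 fold change was 0.65 with a standard error of 0.27 (edgeR, P = 0.0278, FDR 0.819, exact permutation P = 0.0556).

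Ccdc153, a component of the dynein regulatory complex, had the lowest P-value of the members. It was at 1.36, 8.27, 5.69, 4.46 and 12.2 CPM in water rats and at 12.5, 15.6, 11, 18.6 and 18.6 CPM in EtOH rats. Water rat 5 alone reached into the range of the EtOH rats. The log2 fold change was 1.17 with a standard error of 0.32 (edgeR, P = 0.00221, FDR 0.668, exact permutation P = 0.0159).

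Ak7, an adenylate kinase of motile cilia, showed the largest fold change of the cilia genes, with 1.36, 19.7, 8.92, 3.43 and 22.3 CPM in water rats and 10.4, 36.1, 20.3, 35.9 and 35.2 CPM in EtOH rats. EtOH rats 2, 4 and 5 were above all water rats, and EtOH rat 1 was below 2 of them. In Ak7 the log2 fold change was 1.22 with a 95% interval of 0.37 to 2.08 (edgeR, P = 0.0124, FDR 0.768, exact permutation P = 0.0635).

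Enkur, a calmodulin-binding protein of cilia and the member with the highest mean CPM, was at 8.49, 18.9, 18.2, 11.7 and 23.1 CPM in water rats and at 12.5, 29.6, 24.7, 31.4 and 28.9 CPM in EtOH rats. EtOH rats 2 to 5 were above all water rats and EtOH rat 1 was among them. The log2 fold change was 0.62 with a standard error of 0.24 (edgeR, P = 0.0198, FDR 0.789, exact permutation P = 0.103).

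Of the structural genes, Dnai1, an intermediate chain of the outer dynein arm, had a log2 fold change of 0.75 (edgeR P = 0.024, exact permutation P = 0.0714), and Rsph1, a radial spoke head protein, one of 0.88 (edgeR P = 0.0351, exact permutation P = 0.111). The remaining 5 genes had P from 0.0551 to 0.438: Tmem212 (0.85), a transmembrane protein of ciliated cells, Mlf1 (0.87), the tektins Tekt4 (0.70) and Tekt1 (0.50), which line the axonemal microtubules, and Dnai2 (0.40), the partner chain of Dnai1. For these 5 the values in parentheses are log2 fold changes.

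Water rat 1 was the lowest of the 10 rats in 9 of the 11 genes, and without it the median log2 fold change of the cilia genes was 0.59 with 3 genes at P under 0.05. Without water rat 5 it was 0.95, with 9 genes at P under 0.05 and a smallest FDR of 0.0846. Over all genes the number with P under 0.05 also rose in that fit, to 1098 from 756 with all rats. With any 1 of the 10 rats left out all 11 log2 fold changes remained positive, and the number with P under 0.05 ranged from 2 (without water rat 4) to 9.

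Experiment 2 asked what a forced EtOH dose added in rats that also drank EtOH. Here edgeR estimated all 12 cilia genes lower after EtOH gavage than after water gavage. The log2 fold changes ran from -1.61 to -0.17, with a median of -0.81 (0.571-fold). Negative log2 fold changes made up 49.9% and positive ones 50.1% of the 12972 genes tested. In edgeR's test 2 genes had P under 0.05, both lower, against 0.902% of all genes lower and 1.05% higher, and 0 passed an FDR of 0.05 (0% of all genes, smallest FDR of a cilia gene 0.730). The groups overlapped in every cilia gene (fully separated in 0.0308% of all genes, 0.0231% higher and 0.00771% lower). The intervals were wide: the common biological coefficient of variation over all genes was 35.9% in experiment 2 and 11.7% in experiment 1.

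Tekt1 had the lowest P-value of the members. Its levels ran from 3.88 to 13.0 CPM (median 9.15) after water gavage and from 2.84 to 8.01 CPM (median 4.46) after EtOH gavage. Water gavage rats 2, 5 and 6, at 12 to 13.0 CPM, were above every EtOH gavage rat, and the other 3 lay among them. The log2 fold change was -0.90 with a standard error of 0.35 (edgeR, P = 0.0209, FDR 0.730, exact permutation P = 0.0476).

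Dnai1 ran from 2.42 to 13.3 CPM (median 4.80) after water gavage and from 1.36 to 4.50 CPM (median 3.24) after EtOH gavage. Only water gavage rats 2, 5 and 6 exceeded the highest EtOH gavage rat. A log2 fold change of -0.96 was estimated, with a 95% interval of -1.82 to -0.09 (edgeR, P = 0.0483, FDR 0.730, exact permutation P = 0.123). Without water gavage rat 5 the estimate was -0.52, with edgeR P above 0.05.

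Foxj1 had the most negative log2 fold change, -1.61, with an interval of -3.48 to 0.25 (edgeR P = 0.112, exact permutation P = 0.0758). It was at 0.268, 7.01, 1.27, 1.06, 1.25 and 2.31 CPM in water gavage rats 1 to 6 and at 0.301, 0, 0.75, 3.09, 0.121 and 0 CPM in EtOH gavage rats 1 to 6, or 0 to 56 reads per rat. Water gavage rat 2 and EtOH gavage rat 4 stood above the rest of their groups. Without the former the log2 fold change was -0.79, and without the latter it was -3.12 with edgeR P under 0.05. In the fit without EtOH gavage rat 4 more genes of any kind had P under 0.05 than with all rats.

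Ak7 ran from 0.352 to 22.4 CPM (median 11.4) after water gavage and from 2.62 to 11.7 CPM (median 6.01) after EtOH gavage, with a fitted log2 difference of -0.87 (edgeR P = 0.206, exact permutation P = 0.827). Ccdc153 ran from 1.41 to 16.3 CPM (median 7.20) and from 3.47 to 7.25 CPM (median 4.90), with a fitted log2 difference of -0.60 (edgeR P = 0.209, exact permutation P = 0.610). Enkur ran from 11.7 to 24.2 CPM (median 15.9) and from 12.2 to 18.8 CPM (median 13.96), with a fitted log2 difference of -0.17 (edgeR P = 0.444, exact permutation P = 0.519). In all 3 genes both the highest and the lowest rat belonged to the water gavage group, so the EtOH gavage values lay inside its range.

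The other 6 cilia genes had log2 fold changes of -1.46 (Stoml3), -0.91 (Rsph1), -0.75 (Tmem212), -0.39 (Mlf1), -0.28 (Tekt4) and -0.23 (Dnai2). For these 6, edgeR P ran from 0.183 to 0.730 and exact permutation P from 0.154 (Rsph1) to 0.994 (Dnai2). Mlf1 had an exact permutation P of 0.987. The median of Dnai2 was 0.696 CPM after EtOH gavage and 0.666 CPM after water gavage. Without water gavage rat 5, 1 of the 3 rats with Slc17a7 near 0, the median of the cilia list was -0.36, with 9 of the 11 genes then tested lower. Over all 12 rats left out in turn the median ranged from -0.99 to -0.36 and the number of genes with P under 0.05 from 0 to 4.

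A score was made for each rat as the mean over the tested members of the z-score of log2 CPM within its experiment. For the cilia genes of experiment 1 the scores of water rats 1 to 5 were -1.91, 0.36, -0.74, -0.73 and 0.44, with a mean of -0.51 ± 0.97 (SD, n = 5), and those of EtOH rats were -0.17, 0.70, 0.24, 0.99 and 0.80, with a mean of 0.51 ± 0.47 (SD, n = 5). In experiment 2 the water gavage rats ran from -1.19 to 1.34, with a mean of 0.24 ± 0.99 (SD, n = 6), and the EtOH gavage rats from -0.79 to 0.48, with a mean of -0.24 ± 0.44 (SD, n = 6). The groups overlapped in both experiments, and the SD was larger in the controls of each, which was not tested. The summed CPM of the cilia genes overlapped likewise, with 26.8 to 125.9 in water and 81.2 to 180 in EtOH rats, then 23.4 to 117 after water gavage and 33.3 to 61.6 after EtOH gavage.

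**Figure D2:**
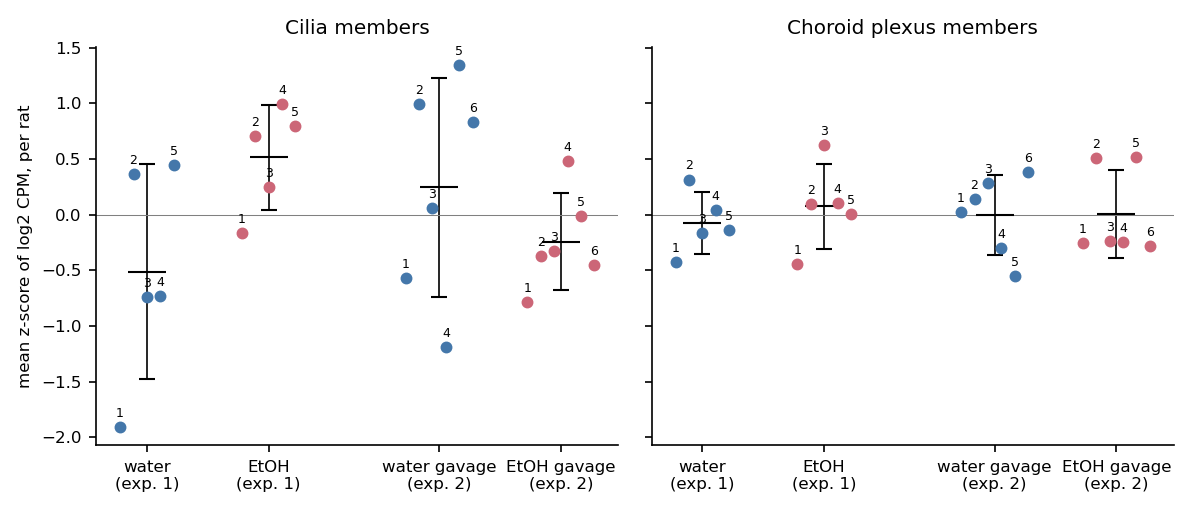
Score of each rat (mean z-score of log2 CPM, numbered points) for the cilia genes (left) and the choroid plexus genes (right), with the mean and SD of each group as a bar and whiskers. Cilia scores run from -1.91 to 0.99 in experiment 1 and from -1.19 to 1.34 in experiment 2 with overlapping groups, and choroid plexus scores stay between -0.55 and 0.62.

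The effects of the 2 experiments were compared with a test of the difference itself (edgeR, effect of EtOH gavage minus effect of EtOH drinking, 12510 genes). All 11 cilia genes tested had a negative difference, with a median of -1.62 on the log2 scale. Of these 7 had P under 0.05 (Dnai1, Tekt1, Ccdc153, Foxj1, Enkur, Ak7 and Rsph1, P from 0.0079 to 0.0339), against 1.44% of all genes with P under 0.05 in that direction and 2.61% in either. The smallest FDR was 0.845, so no gene passed the correction (0% of all genes). This fit gave each gene a spread shared by both experiments. The common biological coefficient of variation was 11.7% in experiment 1 and 35.9% in experiment 2, so these P-values rest on unequal spreads treated as equal. With each of the 22 rats left out in turn all 11 differences remained negative, the median lay between -1.89 (without water rat 2 of experiment 1) and -1.27 (without water gavage rat 5), and 3 to 8 genes had P under 0.05. The contrasts differ in dose and route, in what the controls drank and in library type, and which of these goes with the difference cannot be told apart.

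Most cilia genes varied more between rats of one group than a typical gene. For the cilia genes the SD of log2 CPM within groups had a median of 0.71 in experiment 1 and 0.88 in experiment 2. Over all genes tested the medians were 0.22 and 0.45. All 11 cilia genes tested in experiment 1 and 11 of 12 in experiment 2 were above these. The exception was Enkur, at 0.33 in experiment 2. Between the highest and the lowest rat of an experiment the median cilia gene differed 4.49-fold and 9.10-fold, against 1.62-fold and 2.82-fold for all genes. On the log2 CPM scale with a prior count of 2, Mlf1 differed 23.0-fold in experiment 1. In experiment 2, Ak7 differed 36.9-fold and Enkur 2.04-fold. The lowest rat for Mlf1, water rat 1, had 0 reads, so the size of that ratio depends on the prior count. Low read numbers add counting error to these values, and that share was not separated.

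**Figure D3:**
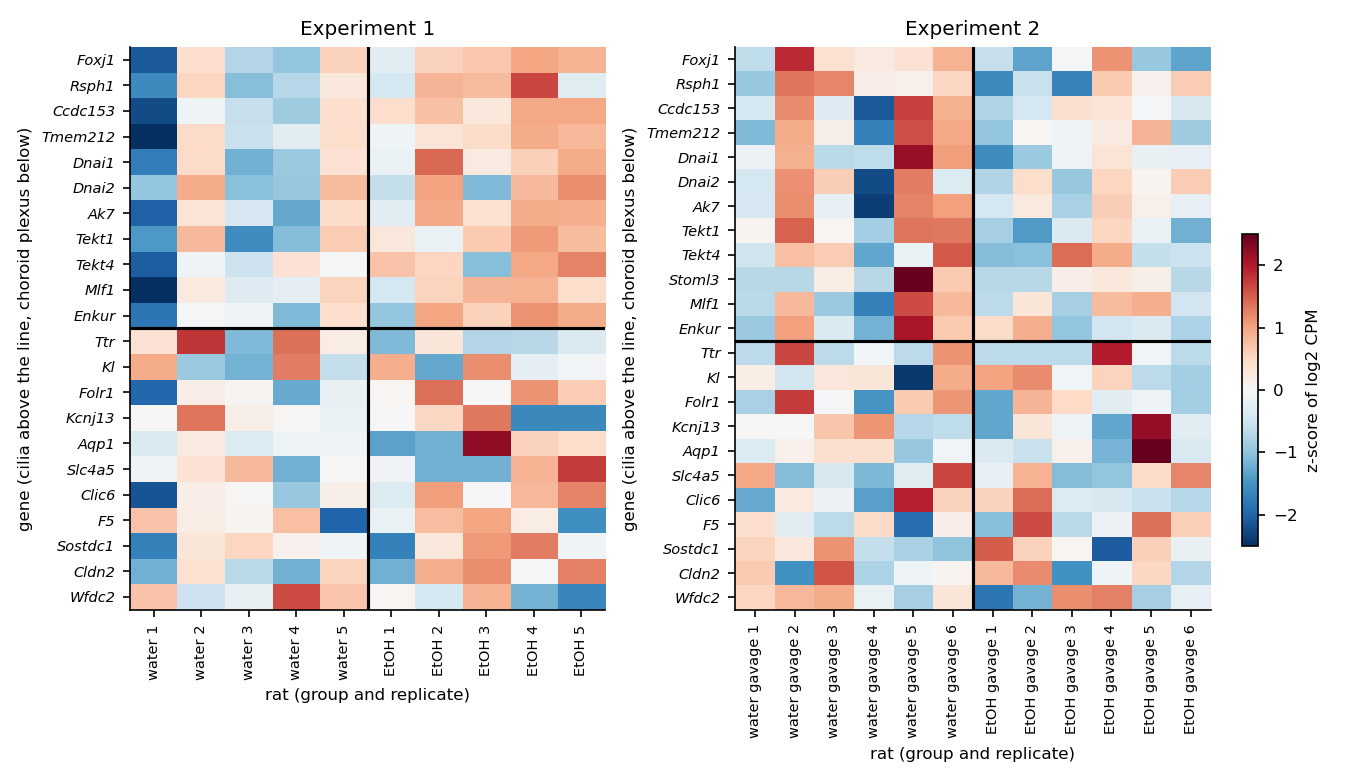
z-scores of log2 CPM for the tested members (rows) in each rat (columns) of experiment 1 (left) and experiment 2 (right), with cilia genes above the horizontal line and EtOH rats right of the vertical line. Most cilia genes are low in water rat 1 and water gavage rat 4 and high in water gavage rats 2, 5 and 6, while Aqp1 and Kcnj13 are high in EtOH gavage rat 5.

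The cilia genes varied together from rat to rat. After subtraction of group means, Pearson's r was positive for all 55 pairs of cilia genes in experiment 1 (median 0.73, 10 rats, 49 pairs above 0.5) and for all 66 pairs in experiment 2 (median 0.56, 12 rats, 38 pairs above 0.5). Over all pairs of tested genes the medians were -2.22e-04 and 0.0037. These pairs share the same rats and libraries and are given as a description.

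Ak7 followed Ccdc153 in both experiments, with r of 0.92 in experiment 1 and 0.89 in experiment 2, and it followed Mlf1 with r of 0.86 and 0.91. Foxj1 followed Ak7 with r of 0.96 in experiment 1 but 0.37 in experiment 2, where 2 rats had 0 Foxj1 reads. Tekt4, with 106 and 93 reads in total, had the lowest median r with the other cilia genes in experiment 1 (0.50) and Rsph1, with 137 reads, in experiment 2 (0.28). These pairs were picked after their values were seen.

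**Figure D4:**
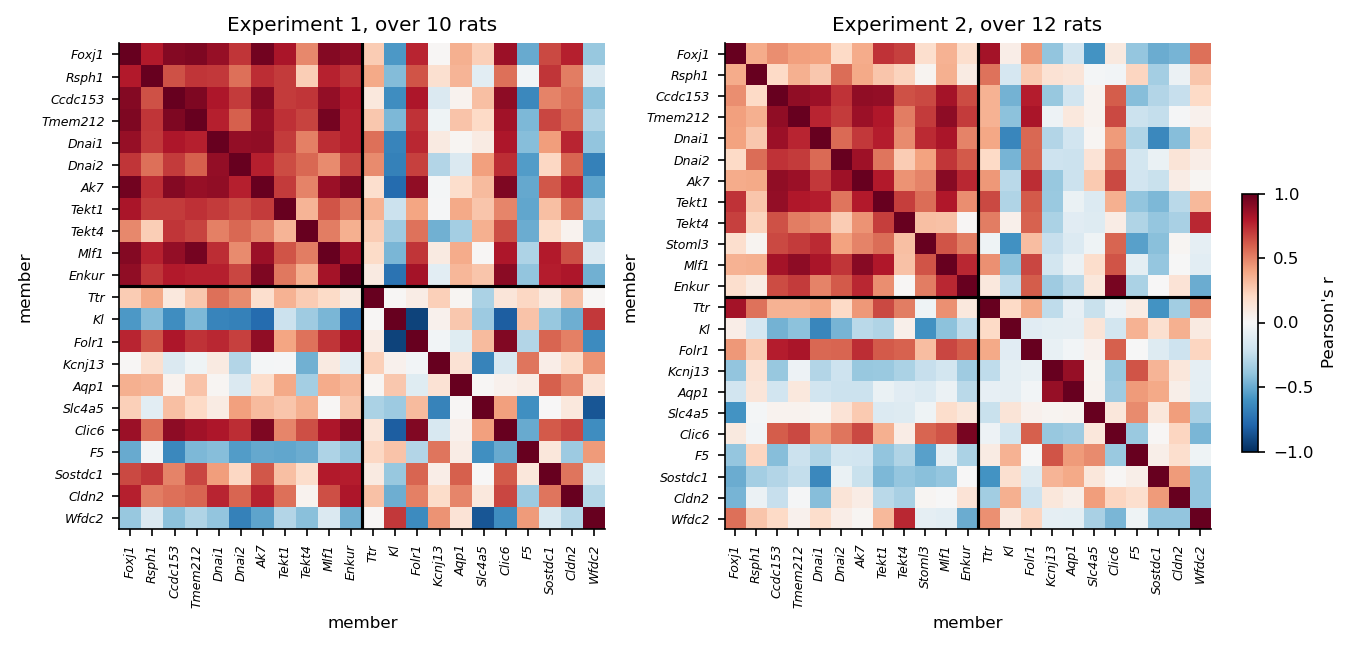
Pearson's r between members over the rats of experiment 1 (left, 10 rats) and experiment 2 (right, 12 rats), from log2 CPM minus group means, with cilia genes before and choroid plexus genes after the black lines. The cilia block is positive throughout both panels, most values of Folr1 and Clic6 against it are positive, and most of Kl are negative.

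The choroid plexus list did not form such a block. Its 55 pairs had a median r of 0.07 in experiment 1 and 0.04 in experiment 2, and the pairs of a cilia with a choroid plexus gene had medians of 0.24 and -0.04. The scores of the lists had a Pearson r of 0.52 in experiment 1 (Spearman 0.49, n = 10) and 0.055 in experiment 2 (Spearman 0.20, n = 12). Without the 2 rats farthest from the median cilia score these were 0.19 and 0.46. After subtraction of group means r was 0.48 in experiment 1 (Spearman 0.42, 0.47 without 2 rats) and 0.061 in experiment 2 (Spearman 0.15, 0.21 without 2 rats). Without water gavage rat 5 the coefficient of experiment 2 was 0.41, so the value there depended on few rats.

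In experiment 1, 8 of the 11 choroid plexus genes tested had a positive and 3 a negative log2 fold change, with a median of 0.17. In edgeR's test 2 had P under 0.05 and were higher, and 1 was lower (3.4% and 2.57% of all genes), and 0 passed an FDR of 0.05 (smallest 0.768, 0% of all genes). In experiment 2, 5 had a positive and 6 a negative log2 fold change, with a median of -0.0046, and 0 had P under 0.05 (1.95% of all genes in either direction by edgeR, while the exact test gave 0 of 11 against 2.22%). The groups overlapped in all of them in both experiments. Without EtOH rat 3 the median of experiment 1 was -5.25e-05 and the list split into 5 higher and 6 lower. In experiment 2 the median lay between -0.19 and 0.30 with single rats left out.

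Folr1, a folate receptor that carries folate into cerebrospinal fluid, was at 0, 1.87, 1.71, 0.343 and 1.33 CPM in water rats and at 1.69, 5.2, 1.60, 4.25 and 2.86 CPM in EtOH rats. EtOH rats 2, 4 and 5 were above all water rats. The log2 fold change was 1.42 with a standard error of 0.53 (edgeR, P = 0.0157, FDR 0.788, exact permutation P = 0.0476).

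Clic6, an intracellular chloride channel protein, was at 0, 2.13, 1.90, 0.686 and 2.10 CPM in water rats and at 1.35, 4.42, 1.83, 3.72 and 5.14 CPM in EtOH rats. Its order of rats was close to that of Folr1, with r of 0.92 between the genes in experiment 1 and 0.59 in experiment 2. It was estimated at 1.14 on the log2 scale above water rats (SE 0.51, edgeR P = 0.0385, FDR 0.829, exact permutation P = 0.0794). Both genes are described in this detail after their values were seen.

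Folr1 and Clic6 correlated with the cilia genes in both experiments. Their median r with single cilia genes was 0.72 and 0.81 in experiment 1 and 0.60 and 0.56 in experiment 2, against 0.02 and 0.08, then -0.01 and -0.12, with the other choroid plexus genes. In experiment 1, Sostdc1 (0.62) and Cldn2 (0.59) also had a positive median r with the cilia genes, which was -0.36 and -0.04 in experiment 2. With the cilia score itself Folr1 had r of 0.81 and 0.76 after subtraction of group means (Spearman 0.66 and 0.77, and 0.70 and 0.70 without the 2 rats farthest from the median cilia score). Clic6 had 0.89 and 0.61, and 0.78 and 0.23 without those 2 rats. In experiment 2, Folr1 had a log2 fold change of -0.56 (edgeR P = 0.384, exact permutation P = 0.509) and Clic6 of -0.30 (edgeR P = 0.676, exact permutation P = 0.991), the sign of the cilia genes there, and the difference between experiments was -2.02 for Folr1 (edgeR P = 0.0289, FDR 0.845).

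Ttr, the carrier of thyroid hormone and retinol, was at 1.70, 8.54, 0, 5.49 and 1.33 CPM in water rats and at 0, 1.56, 0.229, 0.266 and 0.572 CPM in EtOH rats. Water rats 2 and 4 held most of its 70 reads, and water rat 3 and EtOH rat 1 had 0. The fitted log2 fold change was -2.52 (edgeR, P = 0.0125, FDR 0.768, exact permutation P = 0.111), and without water rat 2 it was -1.75 with P = 0.0759. In experiment 2, Ttr had 22 reads in all, 13 after water gavage and 9 after EtOH gavage.

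Aqp1, the water channel of the choroid plexus that blood cells and vessels outside the brain also make, was at 1.70, 2.67, 1.71, 2.06 and 2.10 CPM in water rats and at 0.674, 0.78, 10.5, 3.45 and 3.14 CPM in EtOH rats. EtOH rat 3 set the group apart: the log2 fold change was 0.91 (edgeR P = 0.120, exact permutation P = 0.762) with it and -5.25e-05 without it. In experiment 2, Aqp1 ran from 0.417 to 2.82 CPM (median 1.77) after water gavage and from 0.281 to 42.4 CPM (median 1.04) after EtOH gavage.

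Kcnj13, a potassium channel of the choroid plexus, ran from 0.278 to 4.58 CPM (median 1.04) after water gavage and from 0 to 18 CPM (median 0.759) after EtOH gavage. For both Aqp1 and Kcnj13 the highest value was that of EtOH gavage rat 5, with 351 and 149 reads. The log2 fold changes were 2.15 (Aqp1, edgeR P = 0.0581, exact permutation P = 0.896) and 1.09 (Kcnj13, edgeR P = 0.340, exact permutation P = 0.807), and without that rat they were -0.77 and -1.41. In experiment 1, Kcnj13 had 32 reads in all and a log2 fold change of -0.27 (edgeR P = 0.720, exact permutation P = 0.421).

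EtOH gavage rat 5 was also high in genes outside the list, picked here after their values were seen. Cp, a ferroxidase made by choroid plexus and astrocytes, was at 119 CPM in that rat and at 15.2 to 47.5 CPM in the other 11. The collagen gene Col3a1 was at 119 CPM against 1.61 to 23.6, the growth factor gene Igf2 at 158 CPM against 12.3 to 47.8, and the intermediate filament gene Vim at 191 CPM against 40.4 to 125. Ttr was at 0.121 CPM in it and Otx2 at 0, and its cilia score was -0.0113. Fibroblast markers thus moved with Aqp1 and Kcnj13 in this rat. In experiment 1, EtOH rat 3, the highest for Aqp1 and Cp, had a summed fibroblast level of 100 CPM. The other rats there had 39.1 to 60.3 CPM. Its Col3a1 was at 25.1 CPM against 5.15 to 13.0, Igf2 at 122 against 35.9 to 54.6, and Vim at 166 against 41.1 to 130. Kcnj13 was at 1.83 CPM in it, below the 1.87 of water rat 2. The part of fibroblast markers in these values was not tested.

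Wfdc2, a secreted protease inhibitor-like protein, was at 7.47, 5.60, 6.07, 9.26 and 7.44 CPM in water rats and at 6.40, 5.72, 7.77, 4.78 and 4.29 CPM in EtOH rats, with a fitted log2 difference of -0.28 (edgeR P = 0.238, exact permutation P = 0.159). Kl, the klotho gene, was at 4.75, 2.13, 1.90, 5.49 and 2.48 CPM in water rats and at 4.72, 1.82, 5.26, 2.92 and 3.14 CPM in EtOH rats, with a fitted log2 difference of 0.17 (edgeR P = 0.664, exact permutation P = 0.738). In experiment 2, Wfdc2 ran from 2.92 to 5.73 CPM (median 4.73) and from 1.959 to 6.46 CPM (median 3.31), and Kl from 0.834 to 7.39 CPM (median 4.83) and from 2.44 to 8.51 CPM (median 4.95). The groups of both genes overlapped in each experiment. Kl went against the cilia genes, with a median r of -0.57 in experiment 1 and -0.36 in experiment 2.

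The remaining choroid plexus genes had 18 to 30 reads in total in experiment 1 and 34 to 66 in experiment 2. They were Slc4a5, a bicarbonate transporter, F5, coagulation factor V, Sostdc1, a secreted antagonist of BMP and Wnt signalling, and Cldn2, a tight junction claudin. Their log2 fold changes were 0.16, 0.17, 0.49 and 1.23 in experiment 1 (edgeR P from 0.133 to 0.862) and -0.0046, 0.78, 0.29 and -0.02 in experiment 2 (edgeR P from 0.276 to 0.994). Their standard errors were 0.57 to 0.89 on the log2 scale, so a change of 2-fold was not detectable with these rats and reads.

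**Figure D5:**
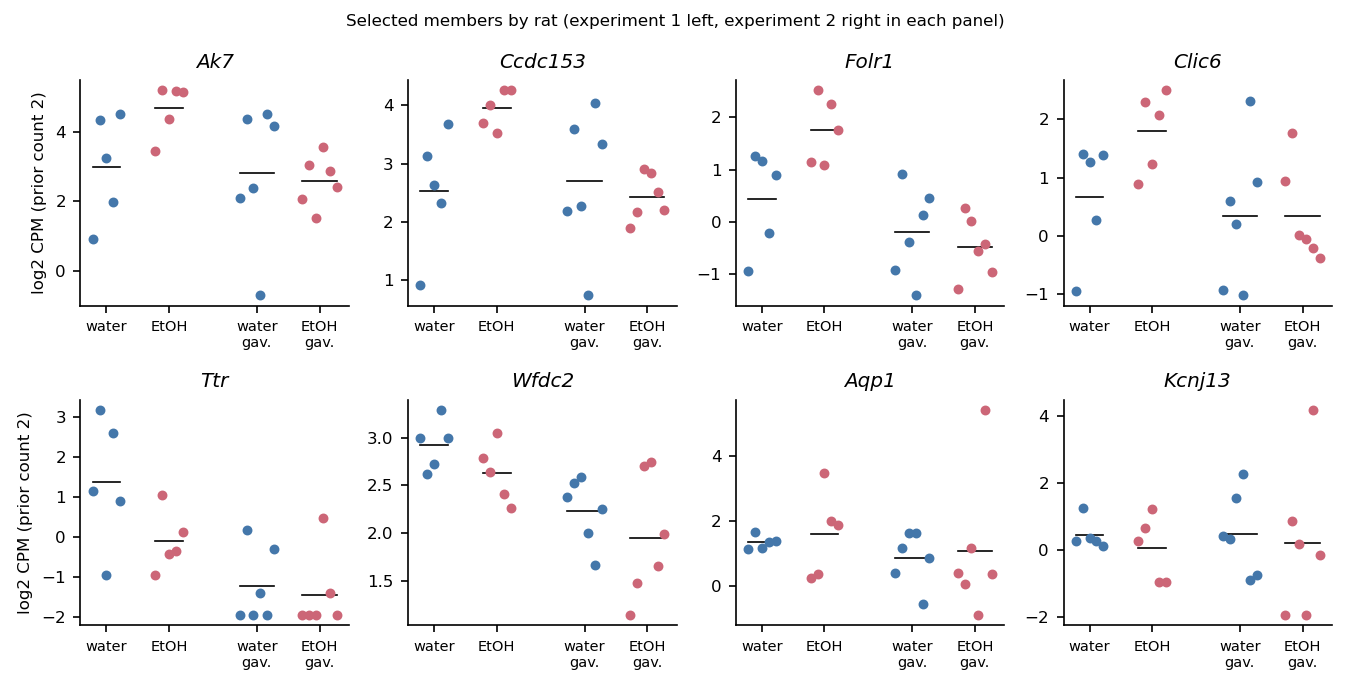
Log2 CPM (prior count 2) of 8 members in each rat, with water and EtOH rats of experiment 1 on the left and water gavage and EtOH gavage rats of experiment 2 on the right of each panel, and group means as lines. Folr1, Clic6, Ak7 and Ccdc153 are all lowest in water rat 1 of experiment 1, while a single rat leads Aqp1 and Kcnj13 in EtOH gavage (42.4 and 18 CPM).

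Other genes of motile cilia, from a list of 105 names, gave a wider view. Of the 58 listed in the files 54 were tested in each experiment. In experiment 1, 52 had a positive log2 fold change (median 0.54), against 50% of all genes. Of the 54, 20 had P under 0.05 and were higher (3.4% of all genes), and 0 passed an FDR of 0.05. The lowest P-values were those of Mns1 (log2 fold change 0.63), Capsl (1.75), Dnali1 (0.86), a dynein light intermediate chain, and Spag8 (0.76), with edgeR P from 0.00415 to 0.00614 and exact permutation P from 0.0159 to 0.0397. In experiment 2, 35 of the 54 had a negative log2 fold change (median -0.17), against 49.9% of all genes. None of the 54 had P under 0.05 (1.95% of all genes in either direction). All 12 cilia members had a negative edgeR log2 fold change there (median -0.81), a pattern that these 54 genes showed less. Their score followed that of the 12 cilia members with r of 0.99 in experiment 1 (Spearman 0.94, 10 rats, 0.98 without 2 rats) and 0.89 in experiment 2 (Spearman 0.78, 12 rats, 0.83 without 2 rats).

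The genes whose pattern over rats was most like the cilia score, by the smaller of the r values in the 2 experiments over 11219 genes, were Lrrc36 (0.97 and 0.96), Dnah1 (0.93 and 0.96), an inner arm dynein heavy chain, Spata18 (0.97 and 0.92), RGD1560672 (0.91 and 0.92) and Ppp1r32 (0.91 and 0.92). Among those most like the choroid plexus score, r was 0.73 and 0.81 (Rnf216), 0.64 and 0.70 (Slc2a12), 0.60 and 0.70 (Tbx19) and 0.68 and 0.59 (Stx7). Both sets are the top of a ranking of all 11219 genes over the same rats, and such a ranking raises r by selection. How much of each r this made up was not tested, and the choroid plexus genes themselves did not vary together.

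Of 36 further choroid plexus names, 32 were tested in experiment 1, of which 25 had a positive log2 fold change (median 0.29), and Cp and Krt8 were among those higher with P under 0.05. In experiment 2, 20 of 33 had a positive log2 fold change (median 0.11) and 1 had P under 0.05 and was higher (Mdfic, 0.58, edgeR P = 0.0212, exact permutation P = 0.0519), against 1.05% of all genes. Cp was at 13.2, 17.9, 19.7, 8.58 and 17.4 CPM in water rats and at 24.6, 26.8, 43.2, 27.6 and 22.6 CPM in EtOH rats, so its groups did not overlap (0.924% of all genes). Its log2 fold change was 0.89 (edgeR, P = 4.66e-04, FDR 0.498), while its r with the cilia score was 0.23 after subtraction of group means (n = 10, Spearman 0.15, 0.11 without 2 rats). Kcne2, a potassium channel subunit of choroid plexus epithelium, had a log2 fold change of -0.59 (edgeR P = 0.0573, exact permutation P = 0.0714).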

How the data were processed

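PolyA+ RNA of 22 rats was sequenced as paired reads, without strand in experiment 1 and with strand in experiment 2. The authors aligned reads to rn6 with Tophat2 and deposited raw htseq-count read counts per gene. The submitters' processing notes also name bcl2fastq 1.8, HTSeq 0.5.3p3 and 0.6.0, TopHat2 2.0.13 and DESeq2 1.6.2. The counting options and the annotation release are not given in the sources used here, so genes that overlap others may share reads.

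Each experiment was fitted on its own in edgeR 4.0.16 (R 4.3.3) with TMM, glmQLFit and glmQLFTest, over genes with at least 10 reads in total, with Benjamini-Hochberg adjustment. The study's filter on the median base mean was used as an alternative, since it keeps 3 and 2 cilia genes and 0 choroid plexus genes. Summary lines (reads outside genes, 46.1% to 58.0% of reads on or outside genes over all rats) were left out. Log2 CPM used a prior count of 2, and single genes had an exact two-sided permutation test over all splits (252 and 924). A standard error is the size of the log2 fold change over the root of F, and 95% intervals use the normal quantile. No pair of rats of a group agreed within sampling noise (chi-square per degree of freedom at least 2.668). Fits were tested on simulated data.

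The members and all gene lists were chosen with earlier results of these data known, so counts over a list carry no test. Values per rat are given for the 4 members of each list with the highest mean CPM, the 3 of lowest P-value per experiment, and Cp, Cd24, Dcx and Dlx1. For other lists up to 4 genes with the lowest P-value are named. Some genes that these rules select are not reported here. Alternatives were DESeq2 1.42.0, its size factors, library size alone, no filter, the newer glmQLFit mode, 1 fit of all groups, the replicate number as a block and each rat left out.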

Additional observations from a re-analysis of the deposited data

Results flagged for a closer look

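For each tested member, for Cp, Cd24, Dcx and Dlx1 and for both scores, in each group, a rat was marked where its gap to the nearest rat of its group exceeded Dixon's 95% critical share of the group's range. Of 114 groups scanned 12 held such a rat. A chance figure of about 5.7 would assume normally distributed values and independent groups. CPM from few reads need not be normal and the genes share rats, so the 12 are not read as an excess. All 12 marked values were the highest of their group. In experiment 1 these were Kcnj13 in water rat 2 (1.87 CPM, others 0.572 to 0.759), Aqp1 in EtOH rat 3 (10.5 CPM, others 0.674 to 3.45) and Cp in the same rat (43.2 CPM, others 22.6 to 27.6).

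In experiment 2, EtOH gavage rat 5 was marked for Aqp1 (42.4 CPM, others 0.281 to 2), Kcnj13 (18 CPM, others 0 to 1.58) and Cp (119 CPM, others 15.2 to 36.9). EtOH gavage rat 4 was marked for Foxj1 (3.09 CPM, others 0 to 0.75) and for Ttr (1.12 CPM, others 0 to 0.121). Water gavage rat 2 was marked for Foxj1 (7.01 CPM, others 0.268 to 2.31). Water gavage rat 5 was marked for Clic6 (4.72 CPM, others 0.235 to 1.65) and Stoml3 (0.973 CPM, others 0 to 0.22). Water gavage rat 1 was marked for Dcx, a neuroblast gene (244 CPM, others 105 to 157). Their cause was not tested.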

How the results depend on the processing

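No gene passed an FDR of 0.05 under any alternative, with 196 to 820 genes at P under 0.05 in experiment 1 (756 in the reported fit, 635 by DESeq2) and 115 to 997 in experiment 2 (253 reported, 317 by DESeq2). One fit of all groups gave the 196 and the 997, the study's filter gave 483 and 115, and the block gave 573 in experiment 2. With 1 rat left out these were 611 to 1098 (without water rat 5) and 123 to 1153 (1153 without water gavage rat 1, 1134 without EtOH gavage rat 4). For the difference of effects they were 326 as reported, 154 by the study's filter, 545 with the block and 222 to 1082 with a rat left out (1082 without water gavage rat 1, 898 without EtOH gavage rat 4). The median of the cilia genes was 0.65 to 0.80 and -0.83 to -0.53 over the alternatives. Replicate numbers were not taken as pairs: the deviations of rats with the same number correlated from -0.03 to 0.14 in experiment 1 and from -0.51 to 0.69 in experiment 2. The number of cilia genes with P under 0.05 in experiment 1 was 6 as reported, 2 in one fit of all groups, 3 (of 3 tested) by the study's filter, 5 by DESeq2 and 8 without a filter. With the replicate block the cilia medians were 0.80 (8 genes with P under 0.05) and -0.53 (0 genes), and in experiment 2 the log2 fold changes of Kcnj13 (-0.47), Aqp1 (-0.14), Slc4a5 (0.079), Clic6 (0.0085) and Cldn2 (0.078) turned sign.
A prior count of 0.5 moved the median spread of the choroid plexus genes in experiment 1 from 0.76 to 1.36 and of the cilia genes in experiment 2 from 0.88 to 1.28. The cause was not tested.

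With single rats left out, the choroid plexus median of experiment 1 ranged from -5.25e-05 to 0.52 and the score correlation of experiment 2 from -0.067 to 0.41. Log2 fold changes that turned sign for at least 1 rat ranged, in experiment 1, from -0.037 to 0.40 (Kl), -1.03 to 0.14 (Kcnj13), -5.25e-05 to 1.18 (Aqp1), -0.64 to 0.52 (Slc4a5) and -0.12 to 0.37 (F5). In experiment 2 they ranged from -0.50 to 0.044 (Dnai2), -0.75 to 0.11 (Tekt4), -0.68 to 0.19 (Mlf1), -2.71 to 0.48 (Ttr), -1.41 to 1.72 (Kcnj13), -0.77 to 2.405 (Aqp1), -0.29 to 0.49 (Slc4a5), -0.82 to 0.48 (Clic6), -0.11 to 0.66 (Sostdc1) and -0.34 to 0.55 (Cldn2). The study's filter gave no value for the choroid plexus genes, and DESeq2 left their FDR in experiment 1 unset. Read numbers limit precision most for Stoml3, Ttr, Slc4a5, F5, Sostdc1 and Cldn2.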

Other observations

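Genes of neuroblasts and their precursors, which line the wall of the lateral ventricle next to the ependyma, also had higher estimates in EtOH rats of experiment 1. Of 13 tested genes 11 had a positive log2 fold change (median 0.47), 6 had P under 0.05 and were higher (3.4% of all genes), and 0 passed an FDR of 0.05. The lowest P-values were those of Cd24, a surface protein of neuroblasts and ependyma (log2 fold change 0.54), Dcx, a microtubule protein of migrating neuroblasts (0.38), the homeobox gene Dlx1 (0.76) and the proliferation gene Top2a (1.43), all with an FDR of 0.498 in edgeR. Cd24 ran from 27.5 to 43.1 CPM in water and from 43.5 to 64.6 CPM in EtOH rats, Dcx from 126.2 to 156 and from 162 to 219 CPM, and Dlx1 from 24.8 to 57.4 and from 47.9 to 90.05 CPM. The summed level of the list was 292 to 364 CPM in water and 371 to 509 CPM in EtOH rats. Its score had r of 0.72 with the cilia score after subtraction of group means (Spearman 0.60, n = 10, 0.51 without 2 rats). The genes differed in this: r was 0.81 for Dlx1, 0.76 for Cd24 and 0.08 for Dcx (0.54, 0.49 and 0.14 without 2 rats). In experiment 2 the same r was 0.40, 0.55 and -0.45. In experiment 2, 6 of 12 were higher and 6 lower, and 0 had P under 0.05. There Cd24 ran from 32.9 to 97.6 CPM after water gavage and from 53.5 to 77.2 CPM after EtOH gavage, Dcx from 105 to 244 and from 115 to 319 CPM, and Dlx1 from 13.4 to 27.2 and from 15.7 to 42.1 CPM.

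Of 6 ependymal genes outside the axoneme, 2 had P under 0.05 in experiment 1 and 0 in experiment 2. Over all genes the shares were 5.97% and 1.95% in either direction. The 2 were Cd24, which is also in the neuroblast list, and Vim, with a log2 fold change of 0.81 and FDR 0.498. The median of the 6 was 0.099 in experiment 1, with 5 higher and 1 lower, and -0.02 in experiment 2, with 3 higher and 3 lower. All 10 genes of striatal projection neurons had a negative log2 fold change in experiment 1 (median -0.25), 1 of them with P under 0.05 (Drd1, -0.51, FDR 0.768), and 5 of 10 in experiment 2 (median -0.09, with P under 0.05 for Adora2a, lower). Negative values made up 50% and 49.9% of all genes, and P under 0.05 with a negative value 2.57% and 0.902%.

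The medians of the other lists in experiments 1 and 2 were 0.25 and 0.05 for 7 genes of cortical neurons, 0.35 and -0.37 for 6 of septal neurons, 0.02 and 0.06 for 6 of astrocytes, 0.02 and -0.26 for 6 of oligodendrocytes, 0.0049 and -0.39 for 6 of microglia, 0.17 and -0.02 for 5 of endothelium and 0.47 and 0.77 for 5 of fibroblasts. In experiment 1 the numbers with P under 0.05 were 1 lower (Cux2) for cortical neurons, 2 higher (Trpc4, Zic2) and 2 lower (Chat, Lhx8) for septal neurons, 2 higher for endothelium (Flt1, Cldn5), 1 higher for fibroblasts (Col1a1) and 0 for astrocytes, oligodendrocytes and microglia, while in experiment 2 they were 0 for all 7 lists (edgeR). Over all genes P was under 0.05 for 3.4% higher and 2.57% lower in experiment 1 and for 1.95% in either direction in experiment 2.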
